A study of Mus musculus with 82 samples.

Results

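The microRNA miR-9 was followed through both strands that are cut from its precursor, the guide strand miR-9 and the opposite strand miR-9-star. These were 2 of the 1111 mouse mature probe sets on the array, mmu-miR-9_st and mmu-miR-9-star_st. They were chosen by their measured differences between fractions in control mice, in earlier results of these data that had the star strand high in synaptoneurosomes and the guide near the homogenate. That contrast is therefore described below with no test. RNA came from the extended amygdala, a forebrain region tied to stress and alcohol drinking, of female C57BL/6J mice 2 months old. Alcohol mice had a bottle of 20% ethanol and a bottle of water at hand for 24 hours a day over 30 days, and control mice had water alone over the same days. Each mouse gave a synaptoneurosome fraction (SN), which is homogenate pressed through filters of 100 µm and 5 µm and pelleted at 14000 g, and a total homogenate (TH), which is 10% of the same homogenate kept aside. The miRNA arrays were 8 SN and 8 TH arrays from alcohol mice, and 12 SN and 12 TH arrays from control mice. SN hold pinched-off synaptic endings together with the glial and neuronal processes that pass the filters. They are enriched in these and are not pure.

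A miRNA gene is transcribed as a long primary RNA, trimmed to a hairpin by Drosha and cut by Dicer to a short duplex, of which 1 strand is usually kept by an Argonaute protein and the other lost. miR-9 is among the miRNAs typical of brain, and both of its strands are known to act. In human cells the guide was reported to repress REST and the star strand its corepressor CoREST (Rcor1), and in rat neurons the guide was tied to ethanol through transcripts of the BK potassium channel gene Kcnma1. The seed, bases 2 to 8 from the 5′ end, sets most of a strand's targets.

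The mature strands are shown so that the seeds, in capitals, can be compared, read 5′ to 3′ from RefSeq (GRCm38.p6), where both members were found as miR-9-5p and miR-9-3p.
miR-9: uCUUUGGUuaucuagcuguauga
miR-9-star: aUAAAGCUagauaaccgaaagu
The guide is 23 bases long with 8 G or C, and the star strand 22 bases with 7. In their best antiparallel alignment 17 bases formed Watson-Crick pairs and 2 formed G-U pairs, with an unbroken run of 12 pairs. The seeds differ, and of 1679 mature mouse miRNA names in RefSeq 1 carried the guide's seed and 1 the star strand's, each of them the member itself. The array thus held no other miRNA listed there with the same seed as either strand.

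Both strands are encoded at 3 places in the genome, and the hairpins are shown with the guide (first) and the star strand (second) in capitals. Mir9-1 lies on the plus strand at chr3:88215598-88215686, Mir9-2 on the plus strand at chr13:83738814-83738885, and Mir9-3 on the plus strand at chr7:79505264-79505353 (GRCm38.p6).
Mir9-1: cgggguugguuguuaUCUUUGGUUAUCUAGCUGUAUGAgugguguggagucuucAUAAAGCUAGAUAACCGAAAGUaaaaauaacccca
Mir9-2: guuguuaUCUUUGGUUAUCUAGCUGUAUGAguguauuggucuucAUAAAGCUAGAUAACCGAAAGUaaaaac
Mir9-3: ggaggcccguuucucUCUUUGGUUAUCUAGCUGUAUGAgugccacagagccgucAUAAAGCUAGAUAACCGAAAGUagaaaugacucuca
The mature strands are letter for letter the same in all 3 hairpins, and the loops between them differ. A mature probe set therefore reads the sum of 3 genes. No probe set of the deposited table distinguished them.

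Values are log2 levels after RMA, a summary of an array's probes per miRNA. The guide averaged 4.73 over the 40 arrays and miR-9-star 7.58. Levels of different probe sets cannot be set against each other, because probes bind unequally, so only differences of a strand with itself, or shifts in the gap between strands, are compared. Arrays were alike in scale: the median of the 249 probe sets that average at least 4 (called expressed here) was 6.16 to 6.46, and 232 to 261 probe sets reached 4 on an array. In TH of alcohol mice, where the guide was lowest, the guide was higher on arrays with more such probe sets (Pearson's r = 0.74, Spearman's rho = 0.73, permutation p = 0.0451 and 0.0459, n = 8; r = 0.68 without the 2 arrays farthest from the median count). For miR-9-star in that group r was 0.69 and rho 0.56 (permutation p = 0.0629 and 0.155; r = 0.55 without 2 arrays). Over both strands and all 4 groups these were 8 relations, with adjusted p of 0.252 or more for r, and r of the guide was 0.56 in SN of alcohol mice, 0.12 in SN of control mice and 0.33 in TH of control mice. The part of this in the strands' differences and in their correlation was not tested. As a check of the fraction labels, miR-126-3p and miR-143, typical of vessel walls, were lower in SN than in TH in 20 of 20 pairs.

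miR-9-star was higher in SN than in TH in all 12 control mice. Its levels in SN of control mice ran from 7.62 through a median of 7.97 to 8.54, and in TH of control mice from 6.57 through 7.31 to 7.68. Of the 12 SN arrays 11 lay above every TH array. The mean difference within mice was 0.80 (SE 0.12, n = 12 pairs), from 0.29 to 1.60, which is 1.74-fold at the mean. It was the largest mean SN minus TH difference among the 249 expressed probe sets. The guide stood at 3.26, 5.09 and 5.67 in SN of control mice (lowest, median, highest), and at 4.13, 4.72 and 5.29 in TH. The guide's TH range lay inside its SN range, with 1 of 12 SN arrays below every TH array and 3 above. Its mean difference was 0.16 (SE 0.15), it was higher in SN in 9 of 12 mice, and it ranked 86th of 249. In that contrast 6.21% of the 1111 probe sets passed an adjusted p under 0.05 (limma), 2.61% higher and 3.6% lower in SN. Since these values chose the strands, nothing is read from them.

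The alcohol mice were other animals. In them the guide had the larger mean difference of the 2 strands, and the larger one in 5 of 8 mice. That order of the strands did not pass (exact sign-flip p = 0.164, adjusted over the 7 tests 0.270). In SN of alcohol mice 1 to 8 the guide read 5.14, 5.62, 5.74, 5.52, 5.14, 4.07, 5.08 and 4.76. In TH of the same mice it read 2.77, 4.80, 4.75, 3.86, 2.98, 5.28, 4.35 and 3.81. The guide was higher in SN in 7 of 8 mice, most in mice 1 and 5, whose TH arrays were the lowest, and lower in SN in mouse 6 alone. The mean difference was 1.06 (SE 0.33, 95% interval 0.34 to 1.78), the largest of the 249 expressed probe sets, with an SD over mice of 1.11 against a median SD of 0.40. It did not pass across all probe sets (limma, adjusted p = 0.116), in a contrast where 4.05% of the 1111 passed, 0.81% higher and 3.24% lower in SN. An exact sign-flip permutation test gave p = 0.0469 (two-sided, 8 mice, smallest possible 0.00781) and 0.164 after adjustment over the 7 exact tests made on the strands. Without mouse 6 the difference was 1.38 (limma, adjusted p = 0.00392), so 1 mouse decides this call, and a variance trend in the fit also moved it past the threshold (adjusted p = 0.0467).

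miR-9-star in SN of alcohol mice 1 to 8 read 7.90, 6.75, 8.27, 8.13, 7.40, 7.08, 8.54 and 8.02. In TH of these mice it read 6.87, 7.29, 7.32, 7.24, 7.13, 7.69, 7.53 and 6.66. It was higher in SN in 6 of 8 mice and lower in SN in mice 2 and 6. The mean difference was 0.54 (SE 0.23, 95% interval 0.04 to 1.05), which did not pass (limma, adjusted p = 0.310; exact sign-flip p = 0.0859, adjusted over the 7 tests 0.201). It ranked 17th of 249 expressed probe sets. The interval holds the 0.80 of control mice. miR-126-3p and miR-143 were lower in SN also in mice 2 and 6, as in every other pair.

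**Figure D1:**
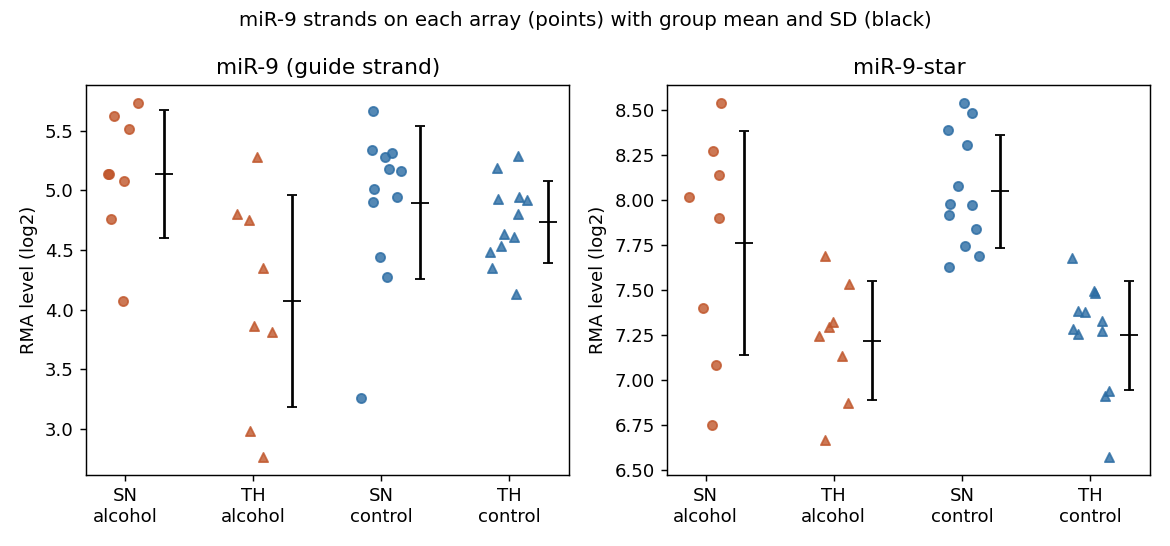
RMA level (log2) of the guide strand (left) and of miR-9-star (right) on each of 40 arrays, with group means and SDs in black; circles are SN and triangles TH, orange alcohol mice and blue control mice. The guide is spread most in TH of alcohol mice, from 2.77 to 5.28, and miR-9-star is highest in SN of control mice, 7.62 to 8.54.

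Ordered by mean level, the guide stood highest in SN of alcohol mice (5.13 ± 0.54, SD, n = 8), then in SN of control mice (4.90 ± 0.64, n = 12), TH of control mice (4.73 ± 0.34, n = 12) and TH of alcohol mice (4.08 ± 0.89, n = 8). miR-9-star stood highest in SN of control mice (8.05 ± 0.31), then in SN of alcohol mice (7.76 ± 0.62), TH of control mice (7.25 ± 0.30) and TH of alcohol mice (7.22 ± 0.33). Each mean in both orders lay within 1 SD, the larger of the 2 groups', of its neighbour.

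The comparison of alcohol with control mice asked whether drinking moved either strand in a fraction. Its control arrays are the ones that chose the strands, through the difference between fractions. That choice can shift a control mean within a fraction. The p values of this comparison, for the guide here and for miR-9-star below, carry that limit. In TH the guide was lower in alcohol mice, by a mean of -0.66 (SE 0.26, 95% interval -1.20 to -0.12). Of the 8 alcohol mice 4 lay below every control mouse and the other 4 within the control range. The difference did not pass across all probe sets (limma, adjusted p = 0.548), where 0% passed and 6.93% had an unadjusted p under 0.05. The exact permutation test over 20 mice gave p = 0.0272, and 0.164 after adjustment over the 7 tests. In SN the guide differed by 0.24 (95% interval -0.29 to 0.77; limma, adjusted p = 0.868; exact permutation p = 0.416), or 0.088 without control mouse 6, with 1 of 8 alcohol mice above every control. Neither fraction thus held a difference of the guide past the threshold.

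miR-9-star in TH averaged 7.22 in alcohol mice and 7.25 in control mice, a difference of -0.03 (95% interval -0.32 to 0.26; limma, adjusted p = 0.982; exact permutation p = 0.836), so a fall by more than 0.32 or a rise by more than 0.26 lies outside the interval. In SN it was lower in alcohol mice by a mean of -0.28 (95% interval -0.69 to 0.12; limma, adjusted p = 0.80; exact permutation p = 0.193), or -0.14 without alcohol mouse 2. Of the 8 alcohol SN arrays 3 lay below every control SN array, those of mice 2, 5 and 6. Among all 1111 probe sets in SN 0% passed and 5.85% had an unadjusted p under 0.05.

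The SN minus TH difference of the guide was 1.06 in alcohol mice and 0.16 in control mice, larger in alcohol mice by 0.90 (SE 0.35). For miR-9-star it was 0.54 in alcohol mice and 0.80 in control mice, a difference of -0.25 (SE 0.25). The control values in both are those that chose the strands, so these differences are a description with no test.

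**Figure D2:**
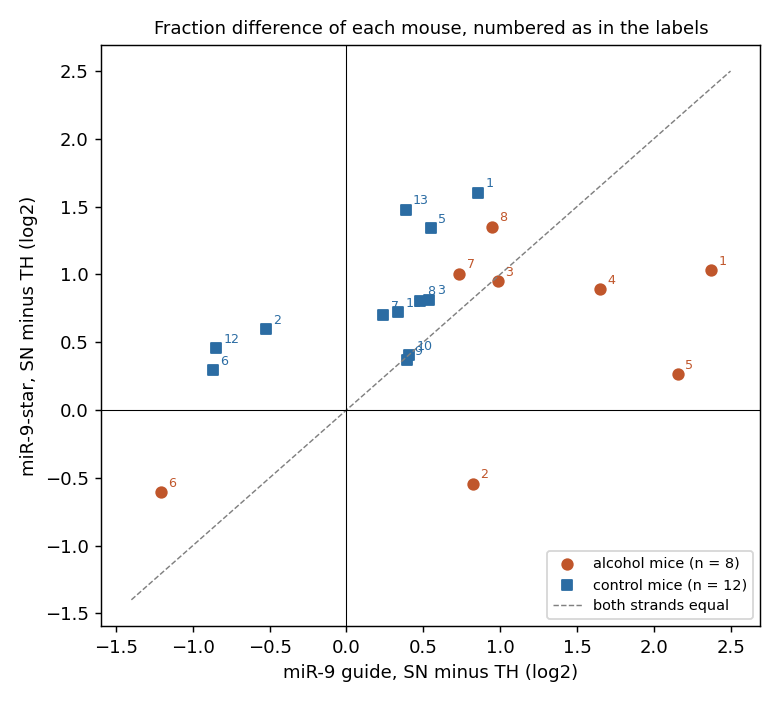
SN minus TH (log2) of the guide (horizontal) and of miR-9-star (vertical) in each mouse, orange circles for alcohol and blue squares for control mice, numbered as labelled. All 12 control mice lie above 0 for miR-9-star and 10 of them above the dashed line of equal differences; 5 of 8 alcohol mice lie below that line.

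The gap of star minus guide on the same array was also compared. In TH it averaged 3.14 ± 0.69 in alcohol mice (SD, n = 8) and 2.51 ± 0.35 in control mice (n = 12), a difference of 0.63. In SN it averaged 2.63 ± 0.72 in alcohol mice and 3.15 ± 0.50 in control mice, a difference of -0.52. Strands chosen for a star minus guide that is larger in SN than in TH of control mice have a narrow control gap in TH and a wide one in SN by that choice, so no test is given and nothing is read from the opposite signs.

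Set against fraction within mice, the star strand's SN minus TH less that of the guide was -0.52 in alcohol mice (SD 0.95, above 0 in 3 of 8; exact sign-flip p = 0.164, adjusted over the 7 tests 0.270) and 0.64 in control mice (SD 0.46, above 0 in 10 of 12). The difference between those means, -1.15, was looked at after the values were seen and rests partly on the contrast that chose the strands, so it has no test. Leaving out any 1 mouse kept it between -1.31 and -0.95, a range that rests on the same choice and is a description.

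Of 330 star probe sets that could be paired with a guide, 30 pairs had both strands expressed, and these are set beside miR-9. Its control value, and any shift from it, follows from the choice of the strands, so the ranks are a description. Over them the median of star minus guide of SN minus TH was -0.003 in alcohol mice and 0.004 in control mice. miR-9 was ranked 28th of 30 from the top in alcohol mice and 1st in control mice, and its shift between drinking groups was the largest in size of the 30, which ranged from -1.15 to 0.82. The highest value belonged to the miR-132 pair, whose guide is an activity-regulated neuronal miRNA, at 0.82. The largest values over all 20 mice were of miR-30a (0.38), miR-411 (0.36), miR-138-2 (0.30), miR-24-2 (0.28) and miR-138-1 (0.26), and the smallest of miR-134 (-0.68), miR-328 (-0.57) and miR-29b-2 (-0.36). miR-9 lay between, at 0.18.

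For miR-124, a miRNA typical of neurons, the star strand's SN minus TH less the guide's was 0.07 in alcohol mice and -0.28 in control mice, a shift of 0.34. Of miR-128 and miR-181a the star strands averaged below 4, so those pairs were not among the 30. The star strand of miR-181a-1 nevertheless stood higher in SN by 0.98 in alcohol mice and 0.57 in control mice, with its guide at 0.12 and -0.01.

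**Figure D3:**
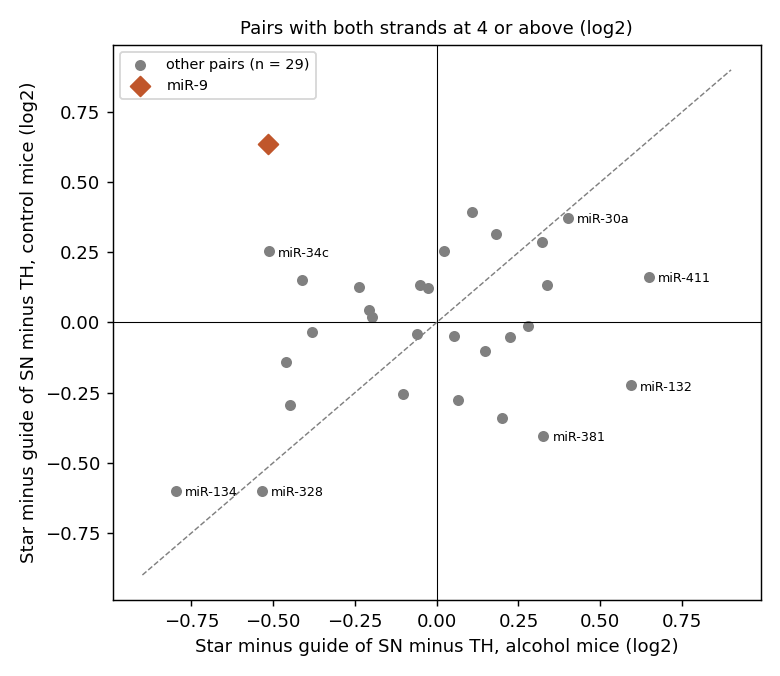
Star minus guide of the SN minus TH difference (log2) in alcohol mice (horizontal) and control mice (vertical) for 30 pairs with both strands expressed. miR-9 (diamond) lies at -0.52 and 0.64, the highest of the pairs in control mice; the dashed line marks equal values.

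The correlation of the strands was taken within each group, and the groups were not tested against each other. Pearson's r over mice was 0.23 in SN of alcohol mice, 0.71 in TH of alcohol mice, 0.65 in SN of control mice and 0.41 in TH of control mice (permutation p = 0.596, 0.0471, 0.0150 and 0.183). For the SN minus TH differences r was 0.54 in alcohol mice (permutation p = 0.176) and 0.61 in control mice. None of these 6 r values passed after adjustment over the 6 (lowest permutation-based adjusted p 0.0864). Spearman's rho was 0.83 in TH of alcohol mice and 0.78 in SN of control mice. Their permutation p was 0.0154 and 0.00409, and 0.0408 and 0.0245 after adjustment. For SN minus TH of control mice rho was 0.67. The latter values chose the strands, so their r and rho are a description without p, though counted in the adjustment. Their counted p set the lowest adjusted p of r, 0.0864, and the 0.0408 of rho in TH of alcohol mice. Those adjusted values thus carry the limit of that choice. The SN and TH arrays of control mice also entered that choice, and p values on them carry that limit. The other rho values were 0.12, 0.34 and 0.36 for SN of alcohol mice, TH of control mice and SN minus TH of alcohol mice, with permutation p of 0.793, 0.277 and 0.389. 

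Without the 2 mice farthest from the guide's median, r was 0.73 in SN of control mice, 0.58 in TH of control mice, 0.44 in TH of alcohol mice and -0.51 in SN of alcohol mice. For SN minus TH it was -0.11 in alcohol mice and 0.48 in control mice. In alcohol mice the r of SN and of SN minus TH thus changed sign without those mice, while that of TH stayed above 0. Leaving out the farthest mice also narrows the range over which r is taken. For the 30 expressed pairs the median r in the same groups was 0.24 in SN of alcohol mice, 0.40 in TH of alcohol mice, 0.34 in SN of control mice and 0.27 in TH of control mice. miR-9 was exceeded by 15, 4, 5 and 10 pairs in that order of groups.

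**Figure D4:**
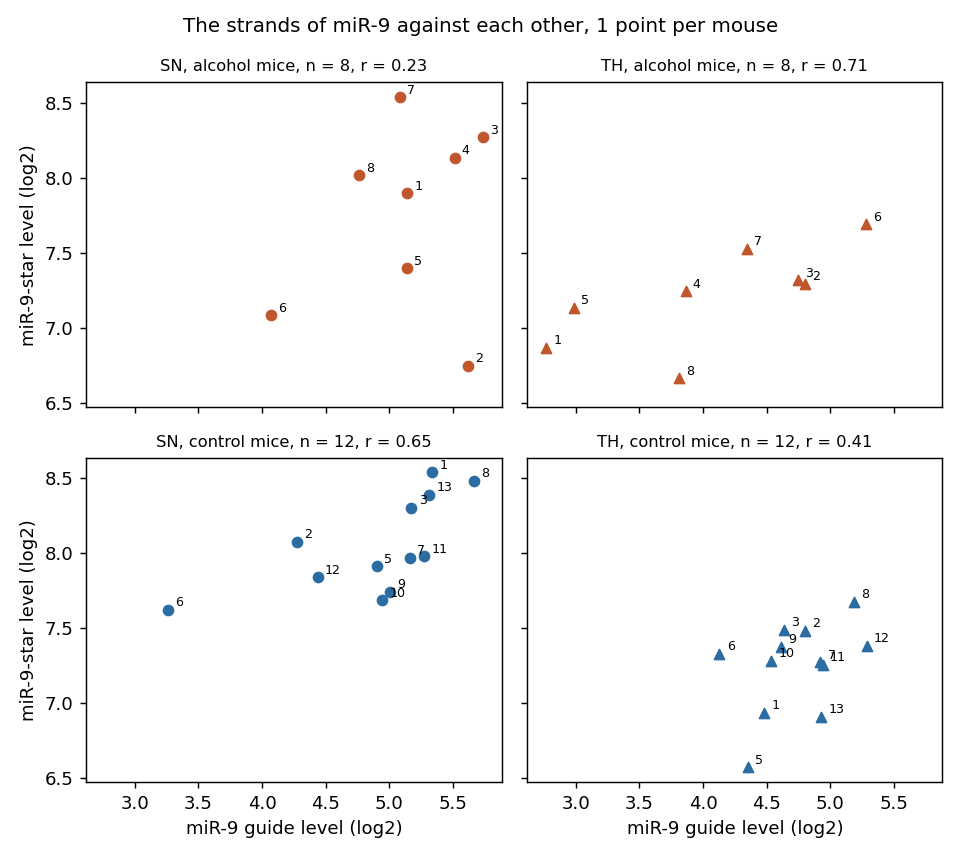
Level of miR-9-star (vertical, log2) against the guide (horizontal, log2), 1 point per mouse, with the group and Pearson's r above each panel. The points rise together most in TH of alcohol mice (r = 0.71) and SN of control mice (r = 0.65).

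The probe sets most like each strand over the 40 arrays are given as a description, since the arrays share scan, scaling and mice. The guide ran most closely with miR-181d (Pearson's r = 0.72), miR-146a (0.69), miR-218 (0.63), miR-411-star (0.61) and let-7f (0.59), among 248 expressed probe sets with a median r of 0.04. With group means taken out the closest were miR-218 (0.75), miR-137 (0.73), miR-154 (0.71), miR-181d (0.64) and miR-146b (0.61). miR-9-star ran most closely with miR-495 (0.84), miR-30b (0.81), miR-132 (0.77), miR-100 (0.76) and miR-376b (0.75). Its own guide was 28th, at 0.52, and from the guide's side the star strand was 19th. With group means taken out the star strand's closest were miR-495 (0.77), miR-30b (0.76), miR-411-star (0.73), miR-376b (0.73) and miR-137 (0.70). miR-137 and miR-411-star thus appeared near both strands, while the leading neighbours differed.

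Of the guide's neighbours, miR-146a had an SN minus TH difference of 0.95 in alcohol mice and 0.50 in control mice, miR-411-star of 0.66 and 0.24, let-7f of 0.61 and 0.20, miR-181d of 0.38 and -0.01, and miR-154 of 0.02 and -0.10. The others stood lower in alcohol mice: miR-218 at -0.11 in alcohol mice and 0.11 in control mice, miR-137 at -0.35 and -0.01, and miR-146b at -0.07 and 0.03. The neighbours thus did not share 1 order of the drinking groups. Of these, miR-146a, miR-411-star and let-7f were near the guide only with group means left in, a choice that can favour the guide's own order. miR-137, miR-154 and miR-146b were near it only with group means taken out. Of those of the star strand, miR-495 stood at 0.56 in alcohol mice and 0.53 in control mice, miR-100 at 0.48 and 0.45, miR-132 at 0.18 in each, miR-30b at 0.20 and 0.31, and miR-376b at 0.14 and 0.40.

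The mRNA arrays of the same study allowed the transcripts around miR-9 to be read: 8 SN and 8 TH arrays of alcohol mice, and 13 SN and 11 TH arrays of control mice. The TH mRNA arrays of control mice 11 and 12 are labelled as outliers and were not among those read. The miRNA arrays of these mice carry no such label and were kept. Values are the authors' normalized ones, on a log2-like scale that is compressed at low signal. Of the transcripts that hold the miR-9 hairpins, the array had a probe for C130071C03Rik (with Mir9-2) and for Mir9-3hg (with Mir9-3), and neither was kept in the normalized tables. C130071C03Rik was detected at p under 0.05 on 0 of 8 SN and 3 of 8 TH arrays of alcohol mice, and on 2 of 13 SN and 3 of 11 TH arrays of control mice. Mir9-3hg was detected on 3 of 8 SN and 5 of 8 TH arrays of alcohol mice, and on 9 of 13 SN and 5 of 11 TH arrays of control mice. Both lay near the array medians, so no difference is given for the primary transcripts.

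Of 26 genes reported as miR-9 targets in one species or another, 25 had a probe and 18 were kept and tested in SN against TH of 11 control mice. The 18 do not stand for the list, since the others were too dim. The fit called 39.5% of 17820 probes, 18.9% higher and 20.6% lower in SN. Among the 18, 6 were higher in SN, 2 were lower and 10 missed the threshold. Their median difference was 0.02, against 0.001 over all probes. The 8 of 18 that passed are a share near that of all probes, which is no result about the targets. In a bulk fraction, fewer cells of a type and less RNA per cell cannot be told apart.

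The largest was Map1b, a microtubule protein of axons and a target of the guide in mouse neurons, at 0.33 (SE 0.10, adjusted p = 0.0242), although its other kept probe stood at 0.01. Kcnma1, the BK channel gene, rose by 0.29 (SE 0.06, adjusted p = 0.00236) and all 3 of its probes rose, from 0.20 to 0.33. The neurofilament gene Nefh rose by 0.13, and the progenitor and astrocyte transcription factor Sox2 and the nuclear receptor gene Nr2e1 by 0.11 each. Rcor1, the target of the star strand, rose by 0.09 (SE 0.03, adjusted p = 0.0432), with its 3 kept probes from 0.01 to 0.09. Without the mouse as a block Nefh and Rcor1 missed the threshold (limma, adjusted p = 0.0717 and 0.0690). Stmn1, a tubulin-binding protein, fell by 0.24 (SE 0.04, adjusted p = 0.000664), and Hes1, a Notch-pathway repressor, fell by 0.09 (SE 0.02). Nr2e1, Sox2 and Hes1 averaged 8.02, 8.13 and 8.18, near the low end of the compressed scale (Mov10, of the processing genes, averaged 7.91). Actl6a, the other gene known for the star strand (in mouse), was at -0.07 (adjusted p = 0.254). Rest, the best known target of the guide, had a probe that was not kept.

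Genes that make or use miRNAs were a separate list: 28 had a probe and 25 were tested. Of these 7 were higher in SN, 3 were lower and 15 missed the threshold (median 0.05), 10 of 25 in all, again near the 39.5% of all probes. The helicase Ddx6, which acts with Argonaute in repression, rose by 0.37 (SE 0.06), though its 3 kept probes ran from 0.07 to 0.37. The slicer Ago2 rose by 0.36 (SE 0.06, adjusted p = 0.000742), though the 3 Ago2 probes ran from 0.03 to 0.36. Adarb1, an RNA editing enzyme, rose by 0.32, in 11 of 11 pairs, Dicer1 by 0.17 (SE 0.06, adjusted p = 0.0451), Adar by 0.12, Tsn by 0.08 and Snd1 by 0.05. Other kept probes had the opposite sign for Adarb1 (lowest -0.01), Adar (lowest -0.06) and Tsn (lowest -0.02), so for these 3 genes the direction is that of the brightest probe. Without the mouse as a block Adar, Tsn and Snd1 missed the threshold (limma, adjusted p = 0.164, 0.177 and 0.0858). Another gene of the list, Xpo5, passed only without the block (limma, adjusted p = 0.0233). Ran, the GTPase that powers nuclear export, fell by 0.39 (SE 0.06), although its other kept probe stood at -0.07. The Drosha partners Ddx17 and Ddx5 fell by 0.26 and 0.14. Drosha itself was at 0.09 (adjusted p = 0.335).

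Beside these lists stand the cell markers in the same contrast. All 8 astrocyte markers tested were higher in SN (median 0.68), of 5 endothelial and mural markers 4 were lower (median -1.41), of 3 neuronal markers 1 was lower, and of 3 neural progenitor markers 2 were higher, Sox2 among them. Of 6 oligodendrocyte markers 3 were higher and 3 lower, of 6 microglia markers 3 were higher, and of 3 choroid plexus and ependyma markers none passed. Their part in the differences of the listed genes and of the miR-9 strands was not tested.

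**Figure D5:**
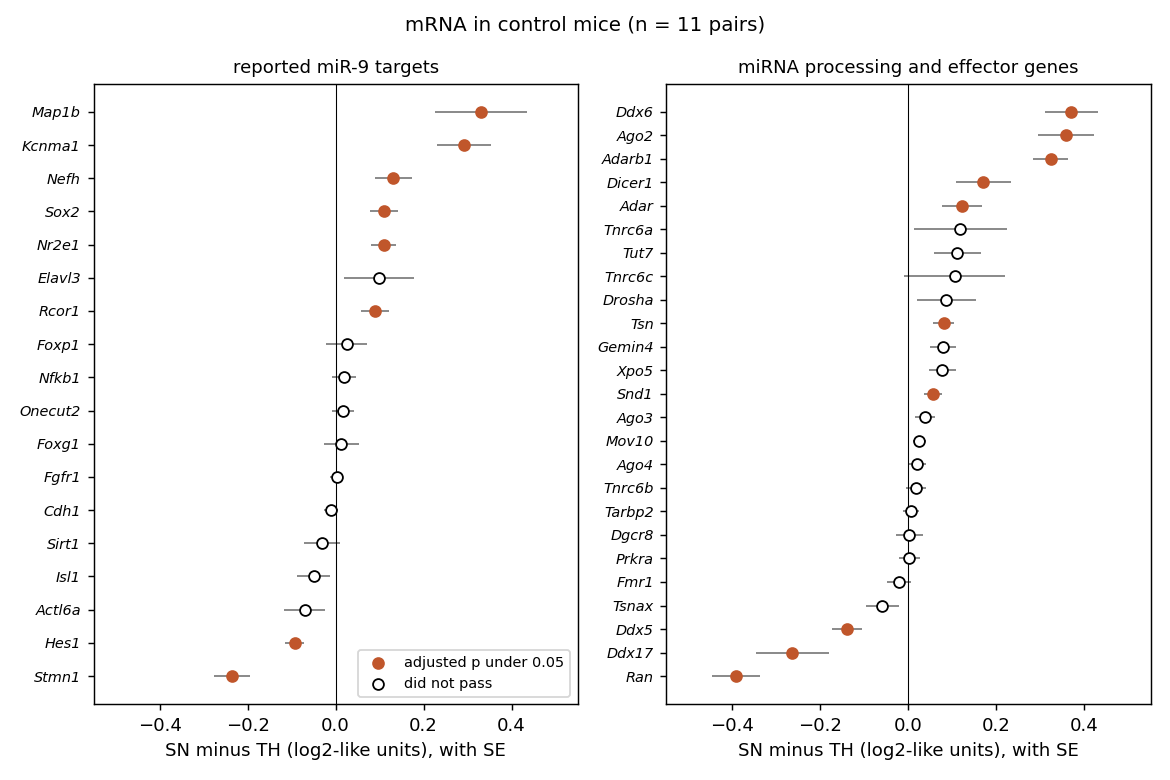
SN minus TH difference (log2-like units, bars are SE) of the kept genes of the target list (left, 18 genes) and of the processing list (right, 25 genes) in 11 control pairs, filled where the adjusted p was under 0.05. Map1b and Kcnma1 lead the targets at 0.33 and 0.29, and Ddx6 and Ran mark the ends of the processing genes at 0.37 and -0.39.

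Between alcohol and control mice no listed mRNA passed in either fraction, nor did any of the 17514 probes in SN or 18318 in TH (limma, 0%), where 10.7% and 3.12% had an unadjusted p under 0.05. Of the 18 targets tested in SN 2 had an unadjusted p under 0.05. These were Hes1, at 8.11 in alcohol mice and 8.01 in control mice (difference 0.09, adjusted p = 0.417), and Rcor1, at 8.51 in alcohol mice and 8.67 in control mice (difference -0.16, adjusted p = 0.417). Of the 24 processing genes tested in SN 5 did, Dicer1 (8.63 in alcohol mice and 8.85 in control mice, -0.22), Adar (-0.20), Ran (0.19), Ddx5 (0.07) and Ago3 (-0.06), with limma adjusted p of 0.417 to 0.451. In TH the targets Elavl3 (0.12) and Rcor1 (0.09) did, at an adjusted p of 0.999, and 0 of 26 processing genes. These are values of the brightest probe. The kept probes of Rcor1 ran from -0.16 to 0.01 in SN and from 0.001 to 0.09 in TH, those of Dicer1 from -0.22 to 0.04 in SN and those of Adar from -0.20 to 0.03 in SN, so no direction is given for these genes.

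Cell markers in the same alcohol contrasts did not pass either, and some differed by more. Ttr, the choroid plexus gene for transthyretin, averaged 9.52 in alcohol mice and 11.3 in control mice in SN (difference -1.80, unadjusted p = 0.0252, limma adjusted p = 0.450), and its difference in TH was -1.28. Enpp2, also of choroid plexus, differed by -0.78 in SN and -0.51 in TH. The median of the 3 choroid plexus and ependyma markers tested was -0.78 in SN and -0.51 in TH. In SN the microglia markers C1qb and C1qa differed by 0.27 and 0.15 and the astrocyte marker Slc1a3 by 0.15. In TH the endothelial marker Flt1 differed by 0.24 and the astrocyte marker Gja1 by 0.11, each of these 5 at an unadjusted p under 0.05 (limma). The other endothelial and mural markers in TH went both ways: Cldn5 -0.08, Ly6c1 -0.01, Pecam1 0.02, Pdgfrb 0.03 and Acta2 0.25. Medians were 0.12 for microglia and 0.10 for astrocyte markers in SN. In TH they were 0.03 for endothelial and mural and 0.05 for astrocyte markers. The part of the cell markers in the alcohol contrasts of the strands and of the listed genes was not tested.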

How the data were processed

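The miR-9 strands and all lists were chosen with earlier results of these data known. Per the submitters' processing notes, the deposited miRNA table holds RMA values on a log2 scale; oligo and limma are also named, without versions. Bead signals deposited by the authors are linear intensity values with a detection p-value for each probe, per the file headers. The authors also deposited normalized mRNA values on a log2-like scale, for which lumi is named but no transform. Nothing was renormalized, and the number of arrays limits the precision.

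All contrasts used limma 3.58.1 in R 4.3.3, with empirical Bayes moderation and Benjamini-Hochberg adjustment over every miRNA probe set or every probe of an mRNA table. SN against TH had the mouse as a block, since both fractions of a title number came from 1 homogenate per the labels. Deviations of the paired arrays from their group means correlated by a median of 0.14 (14 of 20 mice over 0.1). The lowest value was that of alcohol mouse 6, at -0.24. The fits were tested on simulated data. Exact permutation tests of the strands were run in Python 3.11.15 with numpy 2.4.6 and scipy 1.17.1, by sign flips in 8 mice or relabelling of 20, adjusted over 7 tests; correlations over 12 mice used 100000 resamples. Tables were handled with pandas 2.3.3 and figures with matplotlib 3.10.9.

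Genes with several probes are shown by the probe with the highest mean. Of 30 expressed pairs the 5 largest and 3 smallest were named, always miR-124, miR-128 and miR-181a, and the 5 probe sets most like each strand; listed target and processing mRNAs were named where they passed, with Rest, Actl6a, Drosha and both host transcripts always. The miR-132 pair, miR-126-3p, miR-143 and the neighbours given with fraction differences and the genes of the alcohol contrasts at an unadjusted p under 0.05 were added after their values were seen. Tests were planned for the difference between drinking groups in SN minus TH, and for the gap between strands in each fraction; they hold the control values that chose the strands and are given without a p. Alternatives were other normalizations, an expression filter, other moderation, no block and each mouse left out.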

Additional observations from a re-analysis of the deposited data

Results flagged for a closer look

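In the SN minus TH difference of the guide, alcohol mouse 6 stood apart at -1.21, a gap of 0.542 of the group's range to the nearest other mouse, past Dixon's 95% critical value of 0.526 for 8 mice. Its SN array reached 4 in 232 probe sets and its TH array in 251, against 235 to 255 and 240 to 254 on the other alcohol arrays. The deviations of its SN and TH arrays from their group means correlated at -0.24, the lowest of 20 mice. The reason was not tested. Of 7 such sets of 8 values examined, 1 was picked out, and chance picks about 1 in 20.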

How the results depend on the processing

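Of 123 alternatives other than leaving out a mouse, 120 counted as kept, and of 320 that left out a mouse, 313 did. A tested value was kept if its direction and side of the threshold held. An untested value was kept if its direction held and it moved by less than 1 SD. Counts of calls were kept within a set fold change, so 46 probe sets without control mouse 9, against 69 with all, counted as kept. The guide's SN minus TH difference in alcohol mice passed with a variance trend (1.06, limma adjusted p = 0.0467) and without mouse 6, with values of 0.87 to 1.38 as each mouse was left out. The gap of star minus guide, alcohol less control, ran from -0.64 to -0.31 in SN and from 0.49 to 0.73 in TH as each mouse was left out. Both ranges rest on the control values that chose the strands, so nothing is read from their signs. The strand correlation in SN of control mice passed after centring each array (r = 0.71, permutation-based adjusted p = 0.0347), on arrays that also entered the choice of the strands. miR-9-star in TH, alcohol less control, changed sign without alcohol mouse 1 (0.020), alcohol mouse 8 (0.049) or control mouse 8 (0.0091), all within its interval. Counts of called probe sets for SN against TH ran from 42 to 68 in control mice (69 with all; 42 without control 2, 43 without control 3) and from 39 to 53 in alcohol mice (45 with all, 27 without moderation of the variance). In TH the count for alcohol was 0 to 1, the 1 arising without control mouse 13. The cause was not tested. A block by shared title number across alcohol and control mice, which share only a number (deviations correlated by a median of -0.10, with 4 of 14 over 0.1), changed no call. Without the mouse as a block 6109 mRNA probes were called for SN against TH, against 7045 with it.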
